A study of Mus musculus with 48 samples.

Results

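The cell cycle and DNA replication genes described here are 36 genes chosen by name: 14 that license origins or make DNA and its precursors, 5 that control or mark the cycle, and 17 that act in mitosis. A gene counted as measured when at least 1 of its probes had a value on all 48 arrays, and 29 of the 36 were, among 12947 genes measured in all. The RNA came from jejunal epithelium, the lining of the middle small intestine, of female C57BL/6 mice. The mice were given TCDD (2,3,7,8-tetrachlorodibenzo-p-dioxin) at 0.01, at 0.03, at 0.1, at 0.3, at 1, at 3, at 10 or at 30 µg/kg in sesame oil, or sesame oil alone, by gavage over 28 days. One label states dosing every 4 days and another also calls it daily, so the exact schedule is not settled. Each two-colour array set 1 TCDD animal against 1 vehicle animal, and every such animal pair was run on 2 arrays with the dyes swapped, which gave 24 animal pairs, 3 at each of the 8 doses. Only 3 vehicle animals were used: all replicate 1 pairs shared one of them, all replicate 2 pairs another and all replicate 3 pairs the last, so comparisons at different doses share their controls. Values are log2 ratios, TCDD over vehicle, averaged over both arrays of a pair, with the median of every array set to 0. The base and the direction of the deposited ratios were not given in the sources used here. They were taken as log2 of TCDD over vehicle because Cyp1a1, a target of the dioxin receptor, had log2 ratios of 2.66, 3.25 and 3.33 at 30 µg/kg, so the direction is likely rather than stated.

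Most cell division in the intestinal lining takes place in the crypts, where stem cells and their rapidly dividing progeny renew the epithelium. Before S phase, Cdt1 and Cdc6 load the ring of Mcm2 to Mcm7 onto replication origins, and the E2F transcription factors switch on these genes together with the enzymes that make deoxynucleotides. The genes of mitosis are transcribed later in the cycle, through CHR and CCAAT elements in their promoters and factors such as Foxm1. TCDD binds the aryl hydrocarbon receptor (AHR), a transcription factor, and the design sets its doses against vehicle to follow the response of the jejunal epithelium.

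The promoters of both sides of the cycle carried different short motifs, and they are shown because the replication genes and the mitosis genes are compared throughout. RefSeq windows (build GRCm38.p6) of 300 bases, from 250 before to 50 after the annotated start, were matched for 29 of the 36 genes. The search covered both strands for the E2F core (TTCGCGC or TTGGCGC), the CHR (TTTGAA), the CCAAT box (CCAAT) and the AHR core (GCGTG), and an E2F core and an AHR core can share letters. The sequences below run 5′ to 3′ along the gene. Capitals mark E2F cores, CHR and CCAAT letters on either strand. The windows are Cdt1 at chr8:122567765-122568064 on the plus strand, Mcm2 at chr6:88898731-88899030 on the minus strand, Cdk1 at chr10:69352863-69353162 on the minus strand, and Ccnb2 at chr9:70421505-70421804 on the minus strand.
Cdt1: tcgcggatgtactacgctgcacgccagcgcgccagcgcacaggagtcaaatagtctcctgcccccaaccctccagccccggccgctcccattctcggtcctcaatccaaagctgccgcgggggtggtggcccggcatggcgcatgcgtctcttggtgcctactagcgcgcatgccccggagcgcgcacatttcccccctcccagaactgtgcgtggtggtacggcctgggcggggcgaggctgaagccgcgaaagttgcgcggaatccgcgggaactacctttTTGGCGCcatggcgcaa
Mcm2: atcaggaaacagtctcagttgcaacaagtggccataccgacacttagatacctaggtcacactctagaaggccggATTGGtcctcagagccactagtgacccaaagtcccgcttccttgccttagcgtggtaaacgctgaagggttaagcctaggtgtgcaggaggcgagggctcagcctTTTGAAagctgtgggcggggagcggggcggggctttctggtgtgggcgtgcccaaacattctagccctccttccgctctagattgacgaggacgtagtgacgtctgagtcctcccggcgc
Cdk1: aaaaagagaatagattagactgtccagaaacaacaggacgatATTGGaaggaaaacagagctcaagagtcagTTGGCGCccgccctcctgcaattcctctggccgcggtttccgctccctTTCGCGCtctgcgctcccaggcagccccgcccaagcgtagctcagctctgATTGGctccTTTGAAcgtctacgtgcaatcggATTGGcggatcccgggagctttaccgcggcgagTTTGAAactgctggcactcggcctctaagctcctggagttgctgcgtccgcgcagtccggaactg
Ccnb2: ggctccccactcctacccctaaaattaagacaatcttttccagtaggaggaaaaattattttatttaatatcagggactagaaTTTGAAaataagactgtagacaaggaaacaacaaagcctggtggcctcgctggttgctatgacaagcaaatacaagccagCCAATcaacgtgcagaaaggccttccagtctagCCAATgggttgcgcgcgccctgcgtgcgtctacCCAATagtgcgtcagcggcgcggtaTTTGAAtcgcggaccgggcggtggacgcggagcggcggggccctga

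In these windows Cdt1 held 1 E2F core, 33 bases after the start, and no CHR or CCAAT letters. Ccnb2 held 3 CCAAT boxes, at 87, 54 and 21 bases before the start, and 2 CHRs, 167 bases before the start and 4 bases after it. Cdk1 carried both kinds, with 2 E2F cores at 178 and 130 bases before the start and 2 CHRs at 71 and 15 bases before it, beside 3 CCAAT boxes. Mcm2 was the 1 replication gene with a CHR, 70 bases before the start, and it held 1 CCAAT box and no E2F core. An E2F core was found in 5 of 13 windows of replication genes and in 2 of 14 windows of mitosis genes, against 3.89% of all 32851 windows. A CHR was found in 10 of 14 mitosis windows and 1 of 13 replication windows, against 17.9% of all windows. A CCAAT box was found in 13 of 14 mitosis windows and 9 of 13 replication windows, against 37.4%. The AHR core was found in 10 of 14 mitosis windows and 5 of 13 replication windows, against 32.4%. These matches describe letters in a window and are not evidence of binding.

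The 48 arrays held between 27341 and 33126 values each, and the table held ratios with no intensities, so neither signal over background nor the level of a marker of jejunal epithelium could be checked. The number of arrays limits the precision. Genes of the exocrine pancreas, none of which are members, stood apart in 6 pairs: their median log2 ratio was 3.36 and 1.28 in replicates 1 and 3 at 30 µg/kg and 2.92 in replicate 2 at 0.03, 1.92 in replicate 2 at 0.1, 1.47 in replicate 3 at 0.3 and 2.57 in replicate 1 at 1 µg/kg. In the other 18 pairs it lay between -0.11 and 0.06. The part of this tissue signal in the results below was not tested. Leaving out both such pairs at 30 µg/kg, an alternative given further below, leaves 1 pair at that dose. The pairs with the signal at the other doses were kept in that alternative.

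The measured members moved together from animal pair to animal pair rather than step by step with dose. Their median log2 ratio was 0.08, -0.05 and -0.25 in replicates 1, 2 and 3 at 0.01 µg/kg, 0.01, -0.10 and -0.06 at 0.03, and -0.10, -0.29 and 0.09 at 0.1 µg/kg. The next doses were the only ones with all 3 pairs below 0: the median was -0.26, -0.13 and -0.12 in the 0.3 µg/kg pairs and -0.14, -0.20 and -0.08 in the 1 µg/kg pairs. It was 0.21, -0.04 and -0.08 at 3 µg/kg, -0.32, -0.46 and 0.31 at 10, and -0.14, 0.04 and 0.32 at 30 µg/kg. The median was below 0 in 17 of 24 pairs and above it in 7, and its sign was the same on both dye-swapped arrays in 22 pairs. At 10 µg/kg 26 of 29 members were below 0 in replicate 1, 26 were below 0 in replicate 2, and 26 were above 0 in replicate 3. Over the 24 pairs the medians of both dye orientations correlated at r = 0.90 (rho = 0.89), which sets repeats of the same RNA against each other. Since these are bulk samples, fewer dividing cells and less RNA per dividing cell cannot be told apart.

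**Figure D1:**
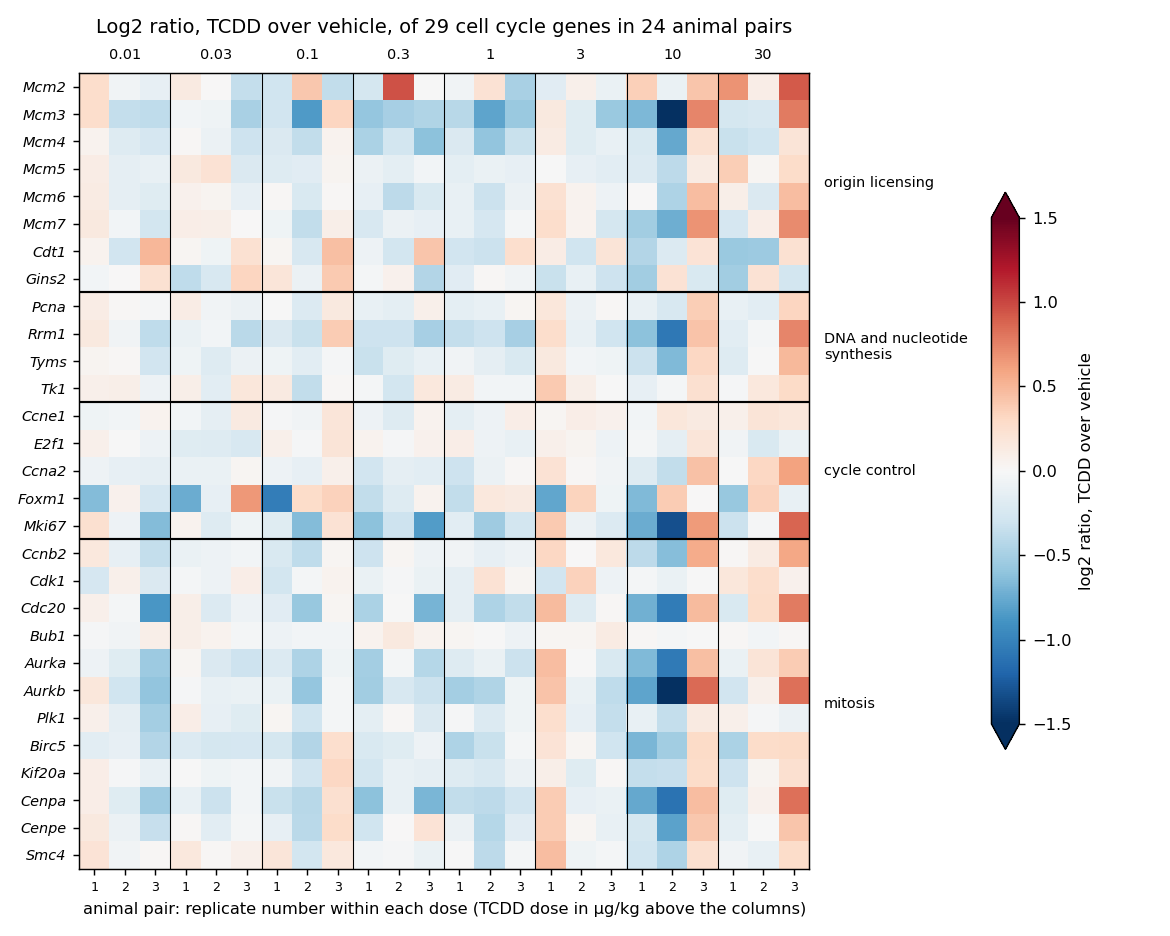
Log2 ratio, TCDD over vehicle, of the 29 measured genes (rows, by role) in the 24 animal pairs (columns, by dose in µg/kg and replicate). Most rows of every role are blue in replicates 1 and 2 at 10 µg/kg and red in replicate 3 at 10 and at 30 µg/kg, while Mcm2, Gins2, Foxm1, Cdk1 and Bub1 are among the rows that do not share that pattern.

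Among the genes that load and build the replicative helicase, the Mcm3 subunit had the widest range. Its log2 ratio was -0.67, -1.58 and 0.73 in the 10 µg/kg pairs and -0.27, -0.24 and 0.78 in the 30 µg/kg pairs, so the pairs of a dose lay on both sides of 0. Mcm7, another subunit of the same ring, had -0.52, -0.73 and 0.67 in the 10 µg/kg pairs and -0.25, 0.10 and 0.71 in the 30 µg/kg pairs. Across the 24 pairs Mcm7 followed the median of the other 28 members at r = 0.95, Mcm3 at 0.91, Mcm4 at 0.81, Mcm6 at 0.76 and Mcm5 at 0.60. These correlations describe pairs that share vehicle animals and arrays. Mcm2, also a helicase subunit, did not follow them (r = 0.14): it had 0.36, -0.10 and 0.42 in the 10 µg/kg pairs and 0.67, 0.10 and 0.91 in the 30 µg/kg pairs, and its highest value, 0.96, was replicate 2 at 0.3 µg/kg. Mcm2 was thus above 0 in all 3 pairs at 30 µg/kg, as was Mcm5 (0.36, 0.03 and 0.28). Mcm6 and Mcm7 were above 0 in 2 of the 3 pairs, and Mcm3 and Mcm4 in replicate 3 only. The dye swaps of Mcm2 repeated each other (r = 0.87 over 24 pairs).

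Cdt1, the loading factor that is destroyed once replication begins, and Gins2, a subunit of the GINS complex that activates the helicase, also went their own way. Gins2 had -0.52, 0.21 and -0.23 in the 10 µg/kg pairs and -0.52, 0.21 and -0.27 in the 30 µg/kg pairs, and its r with the other members was -0.16. Cdt1 had -0.45, -0.21 and 0.21 in the 10 µg/kg pairs and -0.55, -0.54 and 0.23 in the 30 µg/kg pairs (r = 0.33). Both genes had values of either sign at these doses, and Cdt1 was above 0 in replicate 3 only. Cdc6, the other loading factor, had no probe complete on all arrays.

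The enzymes of DNA and nucleotide synthesis moved with the helicase. Rrm1, the large subunit of ribonucleotide reductase, which makes deoxynucleotides, had -0.61, -1.08 and 0.43 in the 10 µg/kg pairs and -0.16, -0.03 and 0.73 in the 30 µg/kg pairs. Tyms, thymidylate synthase, had -0.32, -0.66 and 0.31 in the 10 µg/kg pairs and -0.19, -0.01 and 0.49 in the 30 µg/kg pairs. Pcna, the sliding clamp of the replicative polymerases, covered a smaller range, from -0.25 in replicate 2 at 10 µg/kg to 0.36 in replicate 3 of the same dose. The r with the other members was 0.91 for Tyms, 0.90 for Rrm1, 0.84 for Pcna and 0.67 for Tk1, the thymidine kinase of the salvage pathway. Tyms is the mean of 3 probes that disagreed: 2 had r of 0.92 and 0.90, and the remaining one had -0.24. Rrm2, the small subunit of the reductase, had a value in 23 of the 24 pairs and followed the members at r = 0.86, although it did not enter the fits.

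Of the genes that control or mark the cycle, Mki67, which codes for the proliferation marker Ki-67, followed the rest most closely (r = 0.95). It had -0.74, -1.32 and 0.64 in the 10 µg/kg pairs and -0.33, -0.01 and 0.87 in the 30 µg/kg pairs. Ccna2, the cyclin of S phase and entry into mitosis, had -0.20, -0.37 and 0.44 in the 10 µg/kg pairs and -0.01, 0.31 and 0.61 in the 30 µg/kg pairs (r = 0.84). Ccne1, the cyclin of the G1 to S transition, stayed between -0.19 and 0.19 in all 24 pairs, and E2f1, a transcription factor of that transition, between -0.24 and 0.19. The dye swaps of these genes repeated poorly, with r of 0.13 for Ccne1 and 0.27 for E2f1, so their small ratios are close to the error of the arrays. A further E2f1 probe with missing values ranged from -0.36 to 0.41 and had r = 0.53 with the members in 15 pairs. With dose and vehicle animal means taken out, the complete E2f1 probe had an r of 0.69 with the other members. Foxm1, the factor that drives mitotic genes, had a wide range, from -1.04 to 0.65, and dye swaps that repeated at r = 0.94. It did not follow the members (r = -0.11), whereas most of the mitotic genes in the list did.

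The mitosis genes included the widest range of any member, that of Aurkb. Aurkb, the kinase of the chromosomal passenger complex, had -0.79, -1.60 and 0.84 in the 10 µg/kg pairs and -0.29, 0.07 and 0.82 in the 30 µg/kg pairs. Cenpa, the centromeric histone, had -0.76, -1.11 and 0.46 in the 10 µg/kg pairs and -0.18, 0.06 and 0.82 in the 30 µg/kg pairs. Cdc20, the activator of the anaphase-promoting complex, had -0.72, -1.05 and 0.47 in the 10 µg/kg pairs and -0.23, 0.28 and 0.78 in the 30 µg/kg pairs. All 3 genes were lowest in replicate 2 at 10 µg/kg, and their values in the pairs of either dose lay on both sides of 0. The r with the other members was 0.95 for Aurkb, 0.94 for Cenpa, 0.92 for Ccnb2, a B-type cyclin, and 0.91 for Cdc20. It was 0.90 for Cenpe, a kinetochore motor, 0.89 for Aurka, the centrosomal kinase, 0.87 for Kif20a, a kinesin of cytokinesis, and 0.84 for Birc5, survivin. Smc4, a condensin subunit, had an r of 0.79, and Plk1, the polo-like kinase, of 0.59.

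Cdk1, the kinase that drives entry into mitosis, and Bub1, a kinase of the spindle checkpoint, had r of 0.05 and -0.09 on the probes that were complete. For both genes a further probe with missing values behaved otherwise: it followed the members at r = 0.82 in 23 pairs for Cdk1 and at 0.87 in 15 pairs for Bub1. The complete Bub1 probe ranged only from -0.08 to 0.15, with a standard deviation over pairs of 0.06 against 0.08 between dye swaps. Its near-zero ratios therefore say little of the gene. Further incomplete probes of genes that followed the members did not all do so: r was -0.04 in 23 pairs for Cenpa, 0.19 in 18 pairs for Smc4, 0.31 in 12 pairs for Cenpe, 0.60 in 21 pairs for Mcm3 and 0.86 in 23 pairs for Mki67. Bub1b, a further checkpoint component, followed the members at 0.78 in the 22 pairs with a value and did not enter the fits. Of the incomplete probes of Top2a, a topoisomerase, 2 disagreed, with r of 0.94 in 15 pairs and 0.28 in 17 pairs. Kif11 and Ttk had no complete probe either, and Ccnb1 was not analysed here.

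In all, 18 of the 29 members had an r of at least 0.7 with the median of the others, as did 3.06% of the remaining 12918 genes. The r was under 0.35 for 8 members, namely Gins2, Foxm1, Bub1, Cdk1, Mcm2, E2f1, Ccne1 and Cdt1. The mean r between single genes was 0.43 within the replication genes, 0.53 within the mitosis genes and 0.48 between one side and the other, and 0.01 over all gene pairs of the arrays. The values were 0.45, 0.57 and 0.51 after the means of each dose and of each vehicle animal were taken out. The shared movement thus lay between the animal pairs within a dose. The first principal component held 68.8% of the variance of the members. By list, r of at least 0.7 was reached by 7 of 12 replication genes and 9 of 12 mitosis genes.

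The replication and mitosis genes ran together. The median of the 12 replication genes minus that of the 12 mitosis genes averaged 0.02 ± 0.10 (SD, n = 24 pairs), and the replication median was the higher in 13 of 24 pairs. By dose the difference was 0.11, 0.01, 0.09, -0.03, 0.02, -0.09, 0.08 and -0.03 from the lowest dose to the highest. At 30 µg/kg it was 0.00 without replicate 2 and -0.07 without replicate 3. The replication median was above the mitosis median in all 3 pairs at 0.01 and 0.1 µg/kg and below it in all 3 at 3 µg/kg. Both medians had the same sign in 23 of 24 pairs. They correlated at r = 0.90 and rho = 0.84 over the 24 pairs, and at 0.87 without the 2 pairs farthest out. Within the 8 pairs of one vehicle animal, r was 0.93 for replicate 1, 0.84 for replicate 2 and 0.92 for replicate 3. Without the 2 farthest pairs those values were 0.88, 0.50 and 0.69, so in replicates 2 and 3 part of the relation rested on the extreme pairs.

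**Figure D2:**
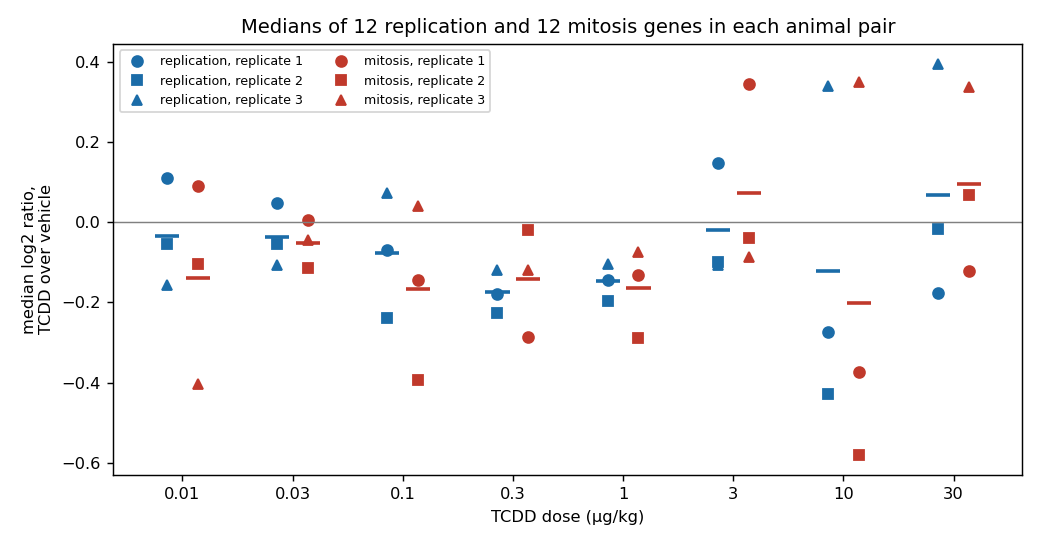
Median log2 ratio, TCDD over vehicle, of the 12 replication genes (blue) and the 12 mitosis genes (red) in each animal pair, by TCDD dose in µg/kg; symbols are replicates and short bars are the means of 3 pairs. At 10 µg/kg the replication medians were -0.27, -0.43 and 0.34 and the mitosis medians -0.37, -0.58 and 0.35, so that both sides share the order of the pairs.

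The pairs of a dose spread apart most at 10 µg/kg. The standard deviation of the 3 pairs, taken per gene and summarised by its median over the 29 members, was 0.18 at 0.01 µg/kg, 0.12 at 0.03, 0.24 at 0.1, 0.12 at 0.3, 0.13 at 1, 0.26 at 3, 0.46 at 10 and 0.31 at 30 µg/kg. Set over the same median of all 12947 genes it was 1.64, 1.18, 2.26, 0.81, 1.04, 2.28, 3.05 and 1.95 times as large. The spread did not grow steadily with dose, since it was at the level of all genes at 0.3 and 1 µg/kg and more than that at 0.1 µg/kg. At 10 µg/kg the mitosis genes had a median SD of 0.56, the replication genes 0.42 and all genes 0.15. One pair set much of this value: without replicate 3 the ratio to all genes at 10 µg/kg was 1.37, and without replicate 1 it was 5.10. Over all doses 26 of 29 members had a pooled SD within doses above the median gene, and 13 of 29 were among the top 10% of genes. The SD over pairs was larger than the dye-swap error in 28 of 29 members, Bub1 being the exception.

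**Figure D3:**
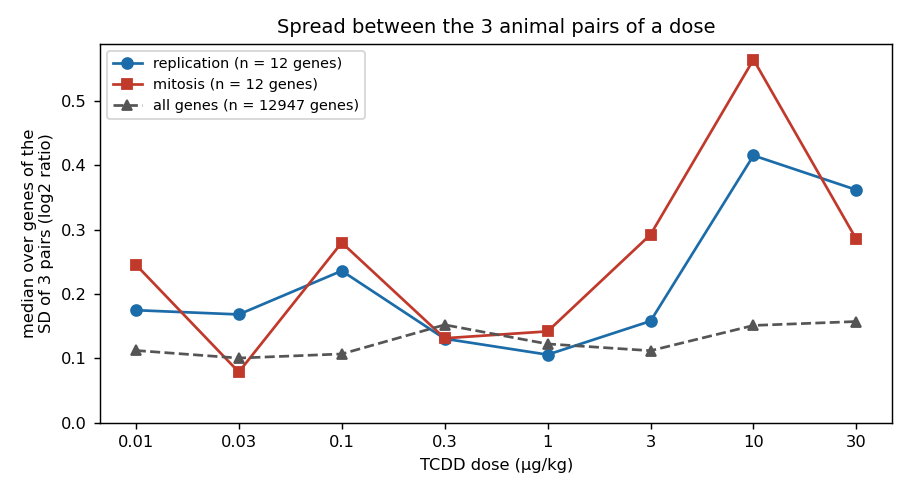
Median over genes of the standard deviation of the 3 animal pairs (log2 ratio) at each TCDD dose in µg/kg, for the 12 replication genes (blue circles), the 12 mitosis genes (red squares) and all 12947 genes (grey triangles). The mitosis genes reach 0.56 and the replication genes 0.42 at 10 µg/kg, against 0.15 for all genes.

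With pairs this variable, 0 of 29 members were called at any dose (limma, Benjamini-Hochberg adjusted p under 0.05 over all genes). The share of all genes called was 0%, 0%, 0.0309%, 0.139%, 0%, 0%, 0.216% and 2.12% from 0.01 to 30 µg/kg, so 0 calls among 29 genes is near the background. At an unadjusted p under 0.05, 0, 1, 0, 3, 1, 0, 2 and 5 members passed at the 8 doses, against 2.17%, 2.89%, 3.57%, 9.79%, 5.22%, 3.81%, 7.18% and 16.2% of all genes. These shares too are near the background. The largest mean among the 5 at 30 µg/kg was that of Mcm2, with a mean of 0.56 (SE 0.20, adjusted p = 0.153), above 0 in 3 of 3 pairs. Ccna2 had 0.30 (SE 0.11, adjusted p = 0.179) and was above 0 in 2 of 3 pairs, and Mcm5 had 0.22 (SE 0.09, adjusted p = 0.202). Without replicate 2 the mean of Mcm2 was 0.79 and its adjusted p 0.0227, the only member then called at that dose, with 0.965% of all genes. The pairs left at 30 µg/kg, replicates 1 and 3, are those with the pancreas signal. Mcm2 had 0.67 and 0.91 in them and 0.10 in replicate 2. On arrays with the TCDD animal in Cy5 alone Ccna2 and Mcm5 were called at 30 µg/kg, with 11.7% of all genes called, and with it in Cy3 alone Ccnb2 was, with 6.75% of all genes.

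At 10 µg/kg the means were below 0 for all 12 mitosis genes and 9 of 12 replication genes, although none was called. Over all genes 6764 of 12947 means were below 0 at that dose. The members moved together across the pairs, so their signs are not separate results. Aurka had -0.42 (SE 0.19, adjusted p = 0.658), Aurkb -0.51 (SE 0.29, adjusted p = 0.721) and Mki67 -0.47 (SE 0.27, adjusted p = 0.722). The count of members called depended on the pairs kept. It stayed at 0 with replicate 1 or with replicate 2 left out, with 0.0772% and 0.147% of all genes called. With the 8 pairs of replicate 3 left out of the fit, 9 members were called at 10 µg/kg, all of them lower: Aurka, Aurkb, Ccnb2, Cenpa, Mcm3, Mcm7, Mki67, Rrm1 and Tyms. Their means were then between -1.19 for Aurkb and -0.49 for Tyms, with adjusted p from 0.0227 to 0.0498 (limma). In that fit 121 of 12947 genes, 0.935%, were called. It keeps only replicates 1 and 2 at 10 µg/kg, and the pair left out is the one in which the genes were high. The 9 genes moved together across the pairs, so these are not 9 separate results. At 0.3 µg/kg, where the pairs spread least relative to other genes, Mcm4 had -0.48, -0.28 and -0.61, a mean of -0.46 (SE 0.14, adjusted p = 0.244), below 0 in 3 of 3 pairs. Mki67 had -0.61, -0.31 and -0.83 at that dose, a mean of -0.58 (SE 0.27, adjusted p = 0.481).

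Across all doses the ratio of each gene was fitted as a straight line on log10 dose, and 0 of 29 members were called, against 0.587% of all genes. At an unadjusted p under 0.05 there were 2, against 12.4%. The steepest positive slope was Mcm2, 0.12 per step of 1 in log10 dose (adjusted p = 0.433), and the steepest negative one was Cdt1, -0.10 (SE 0.05, adjusted p = 0.431). For the 3 highest doses minus the 3 lowest, 0 of 29 members were called, against 0.394% of all genes, and 0 passed at an unadjusted p under 0.05, against 9.29%. The smallest adjusted p was 0.543, for Gins2 (-0.25). By dose the median of the member means was -0.09, -0.07, -0.09, -0.15, -0.13, 0.01, -0.16 and 0.11, with 7, 6, 5, 4, 2, 16, 5 and 21 of 29 members above 0. Of all 12947 genes 6648, 7342, 5618, 6474, 6292, 7433, 6183 and 6609 were above 0. The median of the members at 30 µg/kg turned on single pairs: it was -0.08 without replicate 3 and 0.20 without replicate 1.

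Cdt1 and Foxm1 differed by vehicle animal. In the model with dose, 3 of 29 members differed between the pairs of the 3 vehicle animals, below the 22.4% of all genes that did: Cdt1 (adjusted p = 0.000169), Foxm1 (adjusted p = 0.000771) and Ccne1 (adjusted p = 0.0472). Cdt1 averaged -0.14 ± 0.25 in the 8 pairs of replicate 1, -0.28 ± 0.13 in those of replicate 2 and 0.31 ± 0.12 in those of replicate 3 (SD). All 8 replicate 3 values of Cdt1 were above 0, and all 8 replicate 2 values were below it. Foxm1 averaged -0.65 ± 0.22, 0.15 ± 0.22 and 0.09 ± 0.29 in the same order, and its 8 replicate 1 values were all below 0. Each vehicle animal is the denominator of its 8 pairs, so one animal's level and a difference between the sets of TCDD animals cannot be told apart.

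With the vehicle animal as a block in the fit, Cdt1 was the 1 member called. Its mean at 30 µg/kg was -0.29 with SE 0.08 and adjusted p = 0.0480 (0.455 without the block), and 698 of 12947 genes, 5.39%, were called. Its slope was -0.10 per step of 1 in log10 dose with adjusted p = 0.0407 (0.431 without the block), and 216 genes, 1.67%, were called. The ratio of Cdt1 at 30 µg/kg was the lowest of the 8 doses in replicates 1 and 2 and not in replicate 3. The call did not survive most other settings combined with the block: without replicate 1 the adjusted p at 30 µg/kg was 0.407, without replicate 2 it was 0.451 and without replicate 3 it was 0.0175.

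**Figure D4:**
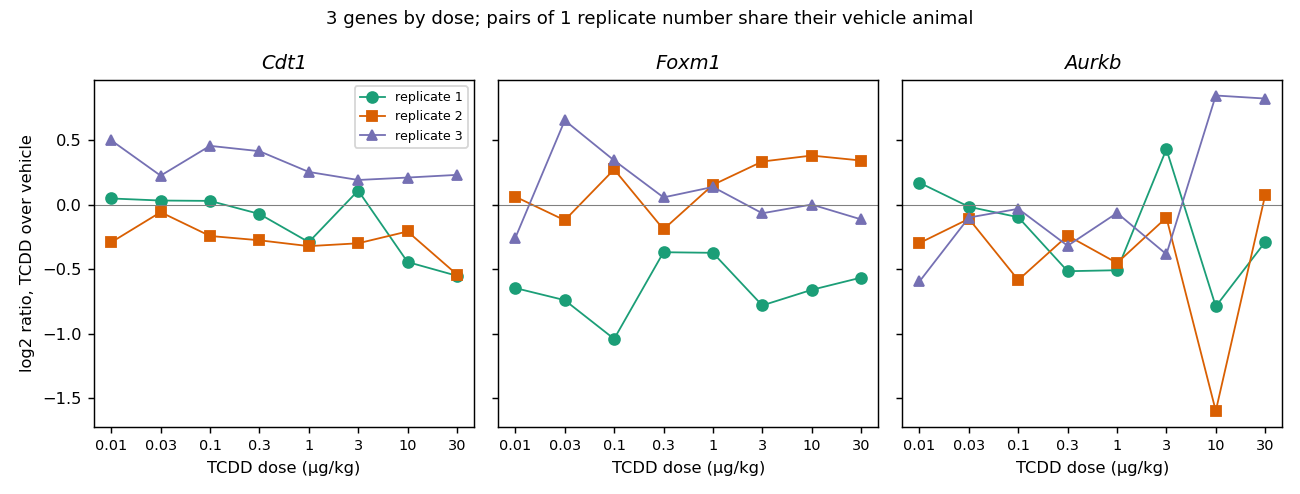
Log2 ratio, TCDD over vehicle, of Cdt1, Foxm1 and Aurkb at each TCDD dose in µg/kg; each line joins the 8 pairs that share a vehicle animal. The lines of Cdt1 lie apart by vehicle animal, with all replicate 3 values above 0, and those of Foxm1 separate replicate 1, whereas those of Aurkb cross and fan out at 10 µg/kg.

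Other genes of the same processes, taken from lists made for this work, moved with the members and had few calls. Of 31 further replication genes and 47 further mitosis genes measured, 0 were called at 30 µg/kg (2 and 5 at an unadjusted p under 0.05), with 18 and 29 above 0 and medians of 0.03 and 0.09 beside 0.00 for all genes. Over all genes 2.12% were called at that dose and 16.2% passed at an unadjusted p under 0.05. The counts of the lists are thus not above the background. By pair the medians of these lists followed the member median at r = 0.91 and 0.92 over 24 pairs. Dut, the dUTPase that protects DNA from uracil, had -0.42, -1.04 and 0.74 at 10 µg/kg and followed at r = 0.95, and so did Incenp, the scaffold of the Aurkb complex, with -0.27, -0.81 and 0.51. The mitosis list held 1 call at another dose: Smc2, the condensin partner of Smc4, fell at 0.3 µg/kg, with -0.66, -0.91 and -0.92 (mean -0.83, SE 0.16, adjusted p = 0.0324). At that dose 0.139% of all genes were called. Smc4 had -0.05, -0.02 and -0.10 in the 0.3 µg/kg pairs. With the block, Ncaph, a further condensin subunit, was called at 30 µg/kg (0.30, adjusted p = 0.0477), as was Slbp, which binds histone mRNA (-0.25, adjusted p = 0.0315). That fit called 5.39% of all genes at 30 µg/kg. Dut, Incenp and Smc2 were picked after their values were seen.

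Among the inhibitors of the cycle, Cdkn1a, which codes for the CDK inhibitor p21, rose at 30 µg/kg. It had 0.93, 0.36 and 0.62 in the 3 pairs, a mean of 0.64 (SE 0.10, adjusted p = 0.00116), and all 3 pairs were above 0. The higher values, of replicates 1 and 3, are from the pairs with the pancreas signal. The part of that signal in the rise was not tested. Cdkn1a was the 1 gene called of 16 measured inhibitors and p53 targets at that dose, beside 2.12% of all genes. Of the 16, 12 were below 0 (median -0.08). At 10 µg/kg Cdkn1a had 0.53, 0.01 and 0.09, and the call there belonged to Zmat3, a p53 target, with 0.31, 0.30 and 0.19 (mean 0.27, adjusted p = 0.0197). At that dose 0.216% of all genes were called. Zmat3 was picked after its values were seen. Cdkn1c, the inhibitor p57, had -0.50, -0.42 and -0.30 at 30 µg/kg (adjusted p = 0.0978, or 0.0419 with the block). With the block 5.39% of all genes were called at that dose. Of 22 measured genes of the G1 phase and the E2F and DREAM complexes 0 were called at 30 µg/kg, and 4 passed at an unadjusted p under 0.05. Over all genes the shares were 2.12% and 16.2%, so these counts are near the background. The smallest adjusted p were those of Lin52, a DREAM subunit (-0.30, adjusted p = 0.0724), and Rbl2, the pocket protein p130 (-0.38, adjusted p = 0.0872), both below 0 in 3 of 3 pairs. By pair the median of this list followed the member median at r = 0.73, and that of the inhibitors correlated with it at -0.34 (rho = -0.29), or at -0.08 without the 2 farthest pairs.

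Markers of 1 other crypt cell type moved with the members. Over the 24 pairs the median of 6 measured Paneth cell genes correlated with the member median at r = 0.80 (rho = 0.77), and at 0.68 without the 2 farthest pairs. The Paneth median was -0.36, -0.59 and 0.97 in the 10 µg/kg pairs and 0.16, 0.05 and 0.96 in the 30 µg/kg pairs, and it ranged from -0.97 to 0.97 over all pairs. Lyz1, the lysozyme of Paneth cells, had -0.38, -1.66 and 1.35 at 10 µg/kg, and 4 of the 6 genes reached an r of 0.7. Lyz1 was picked after its values were seen and had the highest r of the 6, 0.84. Nupr1 and Mmp7 did not follow the members, with r of 0.23 and 0.11. The median of 7 stem cell genes correlated at 0.36, of 7 enterocyte genes at -0.19, of 5 goblet cell genes at -0.02, of 7 B cell genes at 0.30, of 11 T cell genes at -0.28, of 8 smooth muscle genes at -0.07 and of 10 pancreas genes at -0.10. At 10 µg/kg, where the members spread most, the pancreas median stayed between 0.02 and 0.06 in all 3 pairs. The part of the Paneth genes' shift in the members' ratios was not tested.

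**Figure D5:**
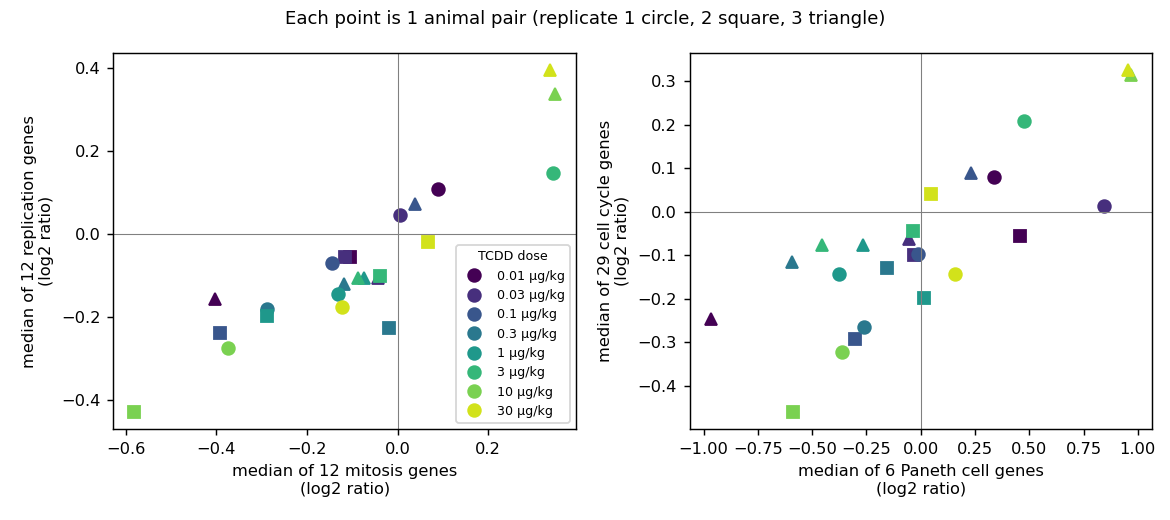
Each point is 1 animal pair, coloured by TCDD dose: left, the median log2 ratio of the 12 replication genes against that of the 12 mitosis genes (r = 0.90); right, the median of the 29 members against that of 6 Paneth cell genes (r = 0.80). In both panels replicate 3 at 10 and at 30 µg/kg stand at the upper right and replicate 2 at 10 µg/kg at or near the lower left.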

How the data were processed

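Per the labels, total RNA was labelled with Cy3 and Cy5. The authors deposited 1 table of log ratios, read here as log2, for 41085 probes on 48 arrays. Its normalization and software are not given in the sources used here. Scanner intensities were not used here, and 25% of the cells were empty. Of 32600 probes in the platform annotation, 32555 had 1 gene symbol and 32416 were matched to RefSeq by gene ID. Probes complete on all arrays were kept (21105), less 265 shared-value probes, which carried the most frequent value of an array on at least 6 arrays. The deposited ratios were read as TCDD over vehicle in both dye orientations, with no sign changed. Arrays were centred on their medians (-0.104 to 0.0773 before), averaged over dye swaps, and probes averaged to genes. The lowest correlation of 2 arrays was 0.04 in one orientation and -0.06 in the other. limma 3.58.1 in R 4.3.3 (lmFit, eBayes) fitted dose means, a slope on log10 dose, and the 3 highest minus the 3 lowest doses over all 24 pairs. p-values were adjusted over 12947 genes by Benjamini-Hochberg, and the script was tested on simulated data.

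The replicate numbers pair the samples, because the labels give each number 1 vehicle animal. Deviations from the dose mean correlated at a mean of 0.28 between pairs of one vehicle animal and -0.14 between others. The deviations of the 3 pairs of a dose sum to 0, so a positive first value pushes the second below 0. The block is named beside a result where it changes a call. The members, the lists and some alternatives were chosen with earlier results of these data known. Named were all members, and of each further list 3 by the lowest p at 30 µg/kg and 3 by that for high against low doses, of which the text gives those that bear on the cell cycle. Other genes are marked as picked afterwards.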

Additional observations from a re-analysis of the deposited data

How the results depend on the processing

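Alternatives were the deposited values without centring, quantile normalization, the replicate block, 1 dye orientation, the median probe, shared-value or incomplete probes kept, array weights, each replicate left out, and the 30 µg/kg pairs with pancreas signal left out. Of the 172 comparisons of a count, median or spread ratio with an alternative, 158 were taken as the same. Medians then moved by less than the spread between pairs, and counts and spread ratios were equal or within a preset fold. Some of these counts did change: 4 members with Cy3 alone and 2 with incomplete probes, beside 3, differed among vehicle animals, with 21.3%, 22% and 22.4% of all genes. The median of the members at 30 µg/kg, 0.11, lay between -0.08 and 0.20 with 1 replicate left out, and replication minus mitosis, -0.03, between -0.07 and 0.00, so neither sign was stable. The replicate block gave 1 member called at 30 µg/kg and 1 for the slope (Cdt1), beside 0 without it, and moved the calls over all genes to 698 from 274 and to 216 from 76. The TCDD animal in Cy5 alone gave 2 members at 30 µg/kg, with 1513 genes called in all. In that orientation 6 members, beside 3, differed among vehicle animals. Over all genes 2215 did, 17.1%, beside 2894, 22.4%, so the members stayed near the background. The TCDD animal in Cy3 alone gave 1 member at 0.03, 0.1, 1, 3 and 30 µg/kg and 2 at 0.3 µg/kg (Plk1, Ccna2, Mcm4 or Ccnb2), with 302, 704, 92, 313 and 874 genes in all at those doses and 1591, 12.3%, at 0.3 µg/kg. Over all genes 30 µg/kg had 545 calls without centring, 140 after quantile normalization, 108 with array weights and 50 without the pancreas pairs, again from 1 pair. Leaving out a replicate gave 0 to 1 members at 30 µg/kg, 0 to 9 at 10 µg/kg, and a spread ratio at 10 µg/kg of 1.37 to 5.10 beside 3.05. The combinations of the block with other alternatives for Cdt1 were chosen after seeing the data: adjusted p at 30 µg/kg reached 0.0872 after quantile normalization, 0.190 with array weights and 0.422 without the pancreas pairs, where 1 pair is left at that dose, taken to vary like the others, and the mean of Cdt1 was -0.30 beside -0.29. The cause of these changes was not tested. Ratios near the dye-swap error, as for Ccne1, E2f1 and Bub1, limit what can be said of those genes.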

Other observations

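Over the 24 animal pairs, the genes outside the list whose ratios ran closest to the member median included Pclaf, the PCNA-associated factor of S phase (r = 0.97), and 8 genes of ribosomal proteins among the first 20. This group was examined after those values were seen. Of 64 measured Rpl and Rps genes, which code for the proteins of the ribosome, 55 had an r of at least 0.7 with the members (median r 0.88), against 3.06% of all genes other than the members. The median log2 ratio of these 64 genes was -0.36, -0.54 and 0.44 in the 10 µg/kg pairs and -0.15, 0.12 and 0.49 in the 30 µg/kg pairs, beside -0.32, -0.46 and 0.31 and -0.14, 0.04 and 0.32 for the members. The pattern of pairs is therefore shared by the cell cycle genes, the Paneth cell genes and the ribosomal protein genes. Many ribosomal protein genes have near-identical pseudogenes, so their probes can measure more than 1 gene. Whether the pairs differ in cell makeup, in RNA handling or in response was not tested.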
